A study of Homo sapiens with 15 samples.

Results

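The genes described here were 9 genes of telomerase and telomere protection, chosen by their symbols in the expression table of LNCaP cells: TERT, TERF1, TERF2, TERF2IP, POT1, ACD, TINF2, RTEL1 and CTC1. Of these, 7 had a row among the 17272 genes of the table, and TERT and RTEL1 were not analysed here. LNCaP is a human prostate cancer cell line that responds to androgen. All cells had been kept for 2 days in medium with charcoal-stripped serum, were then given 1 nM of the synthetic androgen R1881, and were collected 22 h after treatment. The 10 R1881 libraries came from cells that also received DMSO, the vehicle, and the 5 R1881 + enzalutamide libraries from cells that also received 2 µM enzalutamide, an antiandrogen. No group without R1881 was analysed here, so each difference is that of adding enzalutamide to androgen-stimulated cells of a single cell line.

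Telomeres are the repeat-bearing ends of chromosomes. In most tumors they are maintained by telomerase, in which the reverse transcriptase TERT copies an RNA template. Shelterin is the protein complex that covers the repeats: TERF1 and TERF2 bind the duplex DNA, TERF2IP (the RAP1 protein) sits on TERF2, POT1 binds the single-stranded overhang, ACD (the TPP1 protein) holds POT1 and recruits telomerase, and TINF2 (the TIN2 protein) bridges ACD to TERF1 and TERF2. RTEL1 is a helicase that unwinds telomeric loops, and CTC1 is the large subunit of the CST complex, which brings DNA polymerase alpha-primase to the overhang to fill in the complementary strand. Antiandrogens are known to slow the division of LNCaP cells, and many genes that copy chromosome ends are also genes of general DNA replication.

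With enzalutamide, the mRNA of CTC1 and TERF2 rose, that of TINF2 and ACD fell, and TERF1, POT1 and TERF2IP did not pass the test. The mean level of CTC1 was 31.3% higher and that of TERF2 15.3% higher, whereas the mean of ACD fell by 27.7% and that of TINF2 by 12.8%. Thus 4 of the 7 genes passed, 2 in each direction, by limma on log2(CPM + 0.5) with an adjusted p under 0.05. Among the 17046 genes tested, 62.5% passed, 29.8% as higher and 32.7% as lower, so a share of this size was the background of the experiment. In the deposited values, the range of the 5 R1881 + enzalutamide libraries was apart from that of the 10 R1881 libraries for 2 of the 7 genes, CTC1 and TINF2, beside 37.2% of all genes tested. Since RNA of whole cultures was measured, fewer cells with a transcript and less of it per cell cannot be told apart. The median absolute log2 fold change was 0.20 for the 7 genes, 0.24 for all genes tested and 0.39 for the genes that passed.

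The libraries held 15830745 to 25416052 counted reads, and the levels below are CPM as deposited. The values of a library summed to 1053406–1078567 with R1881 and to 985580–1008992 with enzalutamide, so the scaling was not by the plain totals and its sums differed between the treatments without overlap. For the 7 genes, the fold change with library totals set to 1000000 is given below. Counts and ranges of libraries apply to the deposited scaling unless stated. The known androgen targets KLK2 (463 to 15.2 CPM, group means), KLK3 (1588 to 134) and TMPRSS2 (850 to 71.5) all fell with enzalutamide, as a check of the treatment labels. Markers of luminal prostate cells, among them HOXB13 (316 CPM with enzalutamide), had rows. Of the basal markers only KRT14 had a row (1.02 to 0.10 CPM), of the fibroblast markers COL1A1 and LUM, of the endothelial markers VWF, and of the leukocyte markers none was analysed here. The summed fibroblast markers were 4.61–8.55 CPM with R1881 and 8.89–13.9 CPM with enzalutamide. Of these, COL1A1 was 4.38–8.43 and 7.45–12.3 CPM, and LUM was 0.09–0.31 and 1.39–1.68 CPM, the groups overlapping for COL1A1 only. VWF was 2.08–2.84 and 2.84–3.35 CPM, and the part of any of these markers in the results was not tested. The R1881 libraries carry the numbers 51 to 55 and 71 to 75 in the labels and the R1881 + enzalutamide libraries the numbers 81 to 85, and what these series are is not stated. Between the R1881 series, limma called 553 of 16810 genes (3.29%, 0.857% higher and 2.43% lower in libraries 71 to 75). This count was not stable: it was 56 to 969 when 1 library was left out, moving by over 1.5 times for each library except R1881 replicates 1 and 2, and 1004 by DESeq2. None of the 7 genes was among them, nor by edgeR or DESeq2, while 1 of them, POT1, had an unadjusted p under 0.05. The numbers of the series and the treatment cannot be told apart, since no series holds both treatments.

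The sequences before the transcription start are shown for a shelterin gene that fell, TINF2, and for the shelterin gene whose level differed least, TERF2IP. They are RefSeq sequences on GRCh38.p14, limited to the bases outside the exons of coding genes, and 4 of the 7 genes matched a RefSeq promoter entry. TINF2 is read from chr14:24242675-24242924 on the minus strand (250 bases), and TERF2IP from chr16:75647666-75647772 on the plus strand (107 bases). Capitals mark every match on either strand to a GC box, spelled GGGCGG, or to the letters of a CCAAT box. Matches to an ETS core, spelled CCGGAA, are marked in the same way.
TINF2: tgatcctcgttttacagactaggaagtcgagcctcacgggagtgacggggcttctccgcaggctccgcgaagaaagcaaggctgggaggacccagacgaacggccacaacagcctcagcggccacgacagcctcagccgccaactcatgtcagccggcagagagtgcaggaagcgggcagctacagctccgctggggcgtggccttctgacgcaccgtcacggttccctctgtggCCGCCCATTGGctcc
TERF2IP: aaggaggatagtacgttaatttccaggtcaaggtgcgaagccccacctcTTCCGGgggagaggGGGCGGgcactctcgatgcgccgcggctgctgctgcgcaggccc
The TINF2 stretch held a GC box directly followed by a CCAAT box, both on the strand opposite to the gene, and the TERF2IP stretch held an ETS core and a GC box. Over 27305 promoters of 250 bases, 42.3% held a GC box, 33.0% a CCAAT box and 14.8% an ETS core, so these are common letters. The TERF2IP stretch of 107 bases is shorter than these windows and than that of TINF2, so they are not directly comparable. Over its full window of 250 bases TERF2IP also held 1 GC box and 1 ETS core. RefSeq also lists a second TINF2 start, whose overlapping window at 24242624-24242873 held 2 GC boxes, 1 CCAAT box and 2 ETS cores over its 250 bases. The 210 of these bases outside the exons of coding genes held no ETS core. Whether TINF2 counts as having an ETS core thus depends on the start and on the exon bases, so it does not set the genes apart. An E-box (CACGTG) and an E2F core (TTCCCGC), held by 6.5% and 5.6% of promoters, were also searched and did not occur in either stretch, which says only that these letters are not in these windows.

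CTC1 lies on chromosome 17 at 8224815-8248058 (GRCh38, GENCODE v44, minus strand, 23 exons in the canonical transcript). Its level in the 10 R1881 libraries was 22.4 CPM at the lowest, 26.4 at the median and 29.1 at the highest. In the R1881 + enzalutamide replicates 1 to 5 it was 34.6, 36.3, 32.8, 33.1 and 35.5 CPM. Every library with enzalutamide thus exceeded every library without it, in both R1881 series. The mean rose from 26.2 ± 2.19 (SD, n = 10) to 34.5 ± 1.51 CPM (SD, n = 5), a log2 fold change of 0.39 ± 0.057 (SE, 95% interval 0.27 to 0.51, limma adjusted p = 5.4e-06). The exact two-sided permutation test over 3003 regroupings of the libraries gave p = 0.000333, the smallest it can give. With library totals set to 1000000 the fold change was 0.48 (limma adjusted p = 4.6e-07). Among the genes that passed the test, 49.7% had a smaller absolute log2 fold change, so CTC1 was near the middle of them by size. PFAS, an enzyme of purine synthesis whose gene overlaps CTC1 on the opposite strand, gave a log2 fold change of -0.10 (limma adjusted p = 0.17).

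STN1 is the CST subunit that stimulates polymerase alpha-primase, and its row carries the older symbol OBFC1. It was between 16.2 and 20.9 CPM with R1881 (median 18.4) and between 17.9 and 21.7 CPM with enzalutamide (median 20.9). Its log2 fold change was 0.12 ± 0.064 (SE, limma adjusted p = 0.12). The third CST subunit, TEN1, was not analysed here. The ratio of CTC1 to STN1 within a library, computed on CPM + 0.5, had a median of 1.43 with R1881 and 1.68 with enzalutamide. On the log2 scale it was 0.27 higher with enzalutamide (exact permutation p = 0.0060, 0.015 after adjustment over the 5 partner ratios compared), and 3 of 5 libraries lay above all R1881 libraries. This ratio did not pass when libraries 73, 74 and 83 were left out (0.20, exact permutation p = 0.051).

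TERF2 is on chromosome 16 at 69355567-69408571 (minus strand, 10 exons). Its lowest, median and highest R1881 libraries held 40.5, 41.9 and 47.1 CPM, and the R1881 + enzalutamide replicates 1 to 5 held 51.2, 48.9, 44.5, 48.7 and 52.2 CPM. Of the 5 libraries with enzalutamide, 4 exceeded all R1881 libraries, and replicate 3 fell within their range. The mean rose from 42.6 ± 2.06 (SD, n = 10) to 49.1 ± 2.98 CPM (SD, n = 5), a log2 fold change of 0.20 ± 0.044 (SE, 95% interval 0.11 to 0.30, limma adjusted p = 0.00047, exact permutation p = 0.0010). With library totals set to 1000000 the fold change was 0.30 (limma adjusted p = 5.2e-06). All 5 libraries with enzalutamide (44.7 to 52.4 CPM) then lay above all R1881 libraries (38.2 to 44.1 CPM). CYB5B, which encodes a cytochrome b5 of the outer mitochondrial membrane, overlaps TERF2 on the opposite strand and fell by 0.24, and the adjacent NIP7, a ribosome assembly factor, fell by 0.21, both on the log2 scale. The sources used here do not say whether the counting took strand into account, so the assignment of reads between such genes on opposite strands is uncertain.

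TERF2IP, whose protein is bound to chromosome ends through TERF2, is also on chromosome 16, at 75647773-75761872 (plus strand, 3 exons). It was measured with the narrowest spread of the 7 genes in R1881, a coefficient of variation of 2.11%. Its R1881 libraries ranged from 125 to 134 CPM (median 130.2), and the replicates 1 to 5 with enzalutamide held 131, 119.6, 131, 131 and 126 CPM. The groups overlapped, with replicate 2 alone below all R1881 libraries. The log2 fold change was -0.03 ± 0.030 (SE, limma adjusted p = 0.38), and its 95% interval of -0.09 to 0.03 applies to this scaling. The value was 0.06 with library totals set to 1000000 (limma adjusted p = 0.052) and 0.01 by edgeR (adjusted p = 0.70). With totals set to 1000000, 4 of 5 libraries with enzalutamide lay above all R1881 libraries, whose highest was 125.6 CPM. KARS1 (row KARS), which encodes lysyl-tRNA synthetase, starts 870 bases away on the opposite strand and gave 0.02 (limma adjusted p = 0.57). The ratio of TERF2IP to TERF2 had a median of 3.07 with R1881 and 2.55 with enzalutamide. On the log2 scale it fell by 0.23 (exact permutation p = 0.0010, 0.0050 after adjustment over the 5 ratios), with 4 of 5 libraries below all R1881 libraries.

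TERF1, the other duplex repeat-binding protein of shelterin, ranged from 27.4 to 34.2 CPM with R1881 (median 31.3). The R1881 + enzalutamide replicates 1 to 5 held 36.6, 30.1, 34.7, 35.9 and 34.1 CPM. In 3 of these 5 libraries the level lay above all R1881 libraries, and replicate 2 lay below the R1881 median. The log2 fold change was 0.12 ± 0.054 (SE, limma adjusted p = 0.051, 95% interval 0.01 to 0.24, exact permutation p = 0.039), so that TERF1 stood at the edge of the threshold, and it was 0.22 with library totals set to 1000000 (limma adjusted p = 0.00088). It passed under 13 of 30 other settings and in leaving out enzalutamide replicate 2 reached 0.17 (limma adjusted p = 0.0084). The ratio of TERF1 to TERF2 differed by -0.08 on the log2 scale (exact permutation p = 0.18, also after adjustment), with a median of 0.738 against 0.718. Without enzalutamide replicate 3 the difference was -0.12 (exact permutation p = 0.046, not adjusted).

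**Figure D1:**
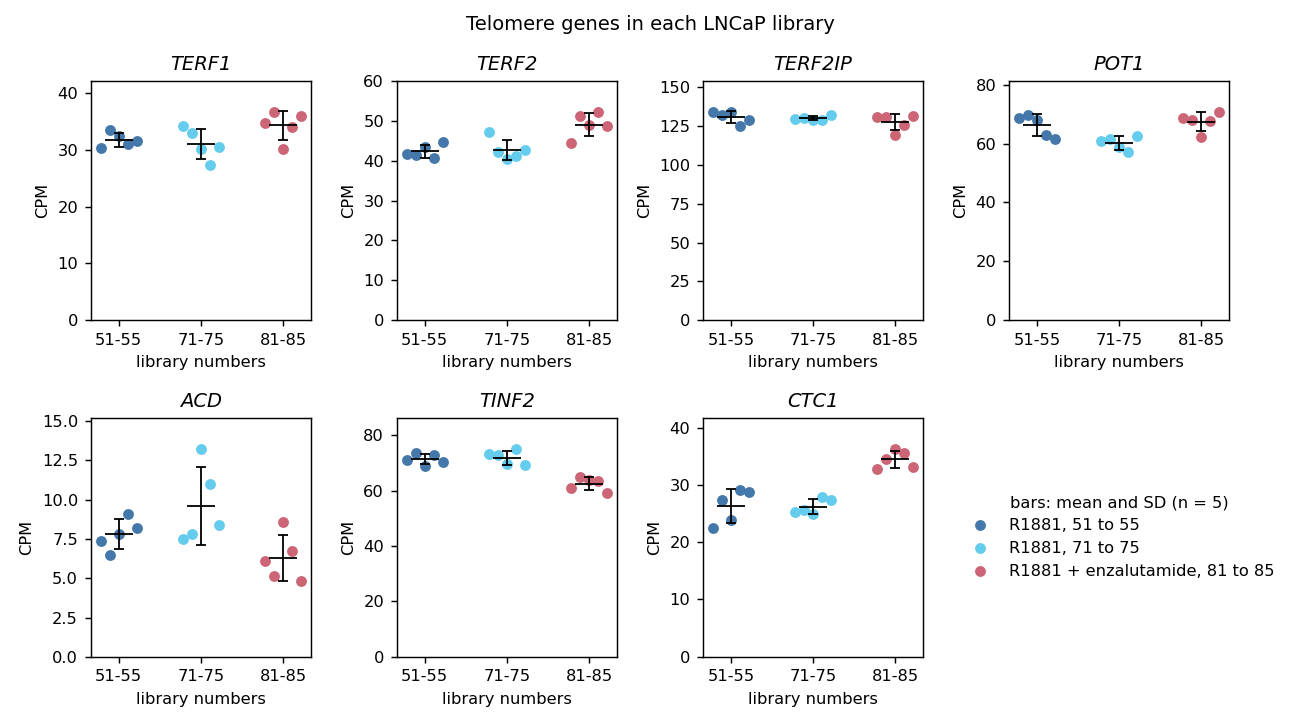
Level in CPM (vertical axes, each from 0) of the 7 telomere genes in each library, by the series of library numbers in the labels (horizontal axes), R1881 in blue tones and R1881 + enzalutamide in red, with the mean and SD of each series of 5. CTC1 with enzalutamide (32.8 to 36.3 CPM) lies above and TINF2 (59.2 to 64.8 CPM) below all R1881 libraries, while ACD is widest within the series 71 to 75 (7.47 to 13.2 CPM).

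TINF2, the bridge of the complex, is on chromosome 14 at 24238286-24242663 (minus strand, 9 exons), next to the promoter printed above. Its lowest, median and highest levels with R1881 were 69.0, 71.9 and 75.0 CPM. With enzalutamide the replicates 1 to 5 held 64.8, 63.8, 61.0, 59.2 and 63.6 CPM, all below the lowest R1881 library. The mean fell from 71.6 ± 2.10 (SD, n = 10) to 62.5 ± 2.31 CPM (SD, n = 5), a log2 fold change of -0.20 ± 0.034 (SE, 95% interval -0.27 to -0.13, limma adjusted p = 3.7e-05, exact permutation p = 0.000333). With library totals set to 1000000 the fold change was -0.10 (limma adjusted p = 0.010), and 4 of 5 libraries with enzalutamide lay below all R1881 libraries (64.3 to 71.2 CPM), with the highest at 64.8 CPM. GMPR2, a guanosine monophosphate reductase whose gene overlaps TINF2 on the opposite strand, changed the other way, by 0.31 on the log2 scale (limma adjusted p = 6.4e-07, no overlap between the groups). TGM1, a transglutaminase gene nearby, gave -0.14 (limma adjusted p = 0.33).

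ACD, on chromosome 16 at 67657512-67660810 (minus strand, 12 exons), was the lowest of the 7 genes by read number, with 108 to 294 reads per library. The lowest, median and highest R1881 libraries held 6.50, 8.02 and 13.2 CPM, and the R1881 + enzalutamide replicates 1 to 5 held 5.17, 8.56, 6.10, 4.85 and 6.74 CPM. The groups overlapped: 3 of 5 libraries lay below all R1881 libraries, but replicate 2 lay above the R1881 median. The mean fell from 8.69 ± 2.00 (SD, n = 10) to 6.28 ± 1.48 CPM (SD, n = 5), a log2 fold change of -0.44 ± 0.138 (SE, 95% interval -0.73 to -0.15, limma adjusted p = 0.0092, exact permutation p = 0.018). With library totals set to 1000000 the fold change was -0.35 (limma adjusted p = 0.039), and 2 of 5 libraries with enzalutamide lay below all R1881 libraries. Between the R1881 series ACD differed by 0.26 (71 to 75 minus 51 to 55, limma adjusted p = 0.25), the widest such difference of the 7 genes. The fold change with enzalutamide was -0.31 against libraries 51 to 55 alone (limma adjusted p = 0.039). Against libraries 71 to 75 alone it was -0.57 (limma adjusted p = 0.0083). PARD6A, a cell polarity gene that starts 136 bases away on the opposite strand, gave 0.32 (limma adjusted p = 0.14), and RLTPR (CARMIL2), which overlaps ACD on the opposite strand, 0.28 (limma adjusted p = 0.18).

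The level of ACD moved with the GC balance of the libraries, taken as the mean log2 deviation of the 25% of genes with the most GC in their transcripts minus that of the 25% with the least. ACD transcripts hold 61.7% GC, more than those of 91.9% of the genes tested. Its highest R1881 values, 13.2 and 11.0 CPM, were in libraries 73 and 74, whose GC balance was 0.48 and 0.28, and its highest value with enzalutamide, 8.56 CPM, was in library 83 (replicate 2), whose GC balance was 0.27. The other 12 libraries had a GC balance of -0.25 to 0.07. With each library's trend on GC content removed, a setting chosen after seeing the data, the SD of log2 ACD in R1881 narrowed from 0.285 to 0.134. All 5 libraries with enzalutamide (5.27 to 7.42 CPM) then lay below all 10 R1881 libraries (7.46 to 10.2 CPM), and the log2 fold change was -0.40 (limma adjusted p = 9.6e-05). The nearest libraries of the treatments, at 7.42 and 7.46 CPM, were almost level. The share of all genes apart in this setting is not given here, and 11679 genes were called, against 10660 in the main test. Between the R1881 series ACD then differed by 0.09 (limma adjusted p = 0.59). Without libraries 73, 74 and 83, a choice also made after seeing the data, the fold change with enzalutamide was -0.43 (limma adjusted p = 0.00023). These libraries held the highest ACD values of their treatments, so leaving them out narrows its spread. Neither this p nor that with the GC trend removed is separate support. For CTC1, whose GC content of 53.4% is nearer the middle, removing the trend left a fold change of 0.41 on the log2 scale.

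**Figure D2:**
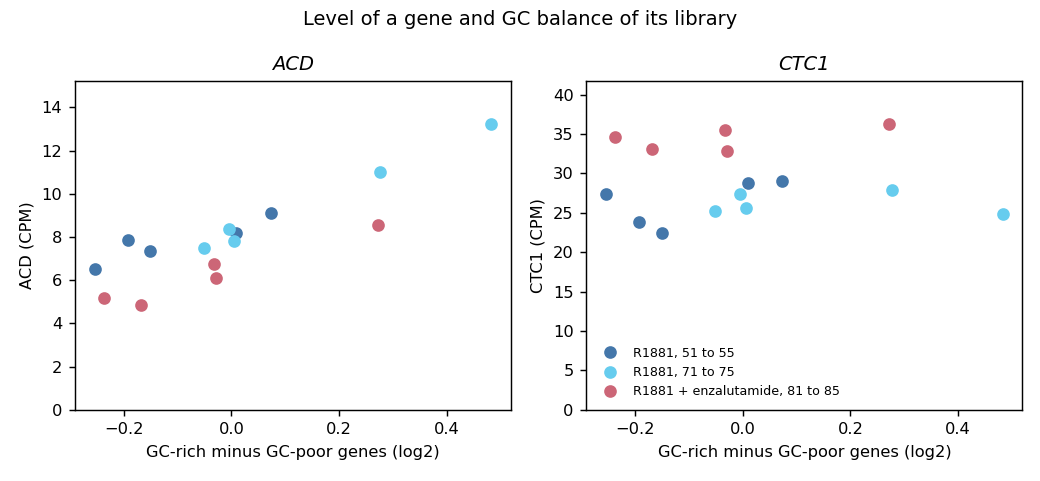
ACD (left) and CTC1 (right) in CPM against the GC balance of each library (horizontal axis, log2), R1881 in blue tones by series and R1881 + enzalutamide in red. ACD is higher where GC-rich genes are higher, and at a GC balance near 0.27 it was 11.0 CPM with R1881 and 8.56 CPM with enzalutamide. CTC1 with enzalutamide is above all R1881 libraries at every GC balance.

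POT1, the overhang-binding partner of ACD, is on chromosome 7 at 124822386-124929983 (minus strand, 19 exons). It ranged from 57.0 to 69.7 CPM with R1881 (median 62.1), and the replicates 1 to 5 with enzalutamide held 68.0, 62.1, 68.7, 70.6 and 67.6 CPM. The means of the R1881 series were 66.3 ± 3.63 CPM in libraries 51 to 55 and 60.2 ± 2.24 CPM in libraries 71 to 75 (SD, n = 5 each, log2 difference -0.14, limma adjusted p = 0.10). The log2 fold change with enzalutamide was 0.09 ± 0.048 (SE, limma adjusted p = 0.096, 95% interval -0.01 to 0.19). With the GC trend removed the difference between the series was -0.031 (limma adjusted p = 0.64) and that with enzalutamide 0.069 (limma adjusted p = 0.029). The treatment difference also passed with TMM factors (0.11, limma adjusted p = 0.039), by edgeR (0.14, adjusted p = 0.0090) and with library totals set to 1000000 (0.19, limma adjusted p = 0.0010). It was 0.03 against libraries 51 to 55 alone (limma adjusted p = 0.66) and 0.16 against libraries 71 to 75 alone (limma adjusted p = 0.0063). The antisense transcript POT1-AS1, which starts 110 bases from POT1, had only 6 to 17 reads per library and gave 0.26 (limma adjusted p = 0.064).

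The ratio of POT1 to ACD had a median of 7.30 with R1881 and 10.5 with enzalutamide. On the log2 scale it ranged from 2.11 to 3.33 with R1881, and with enzalutamide the replicates 1 to 5 gave 3.60, 2.79, 3.39, 3.73 and 3.23. The mean was 0.53 higher with enzalutamide (exact permutation p = 0.021, 0.035 after adjustment over the 5 ratios). It did not pass without enzalutamide replicate 1 (0.47, exact permutation p = 0.054), without replicate 4 (0.43, p = 0.061) or against libraries 51 to 55 alone (0.33, exact permutation p = 0.12). With the GC trend removed it was 0.47 (exact permutation p = 0.000333). The ratio of TINF2 to ACD differed by 0.24 (exact permutation p = 0.15, adjusted p = 0.18). Its exact permutation p, not adjusted over the 5 ratios, was under 0.05 with the GC trend removed (0.20, p = 0.019). The same held without libraries 73, 74 and 83 (0.23, exact permutation p = 0.042) and without enzalutamide replicate 2 alone (0.34, exact permutation p = 0.047).

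**Figure D3:**
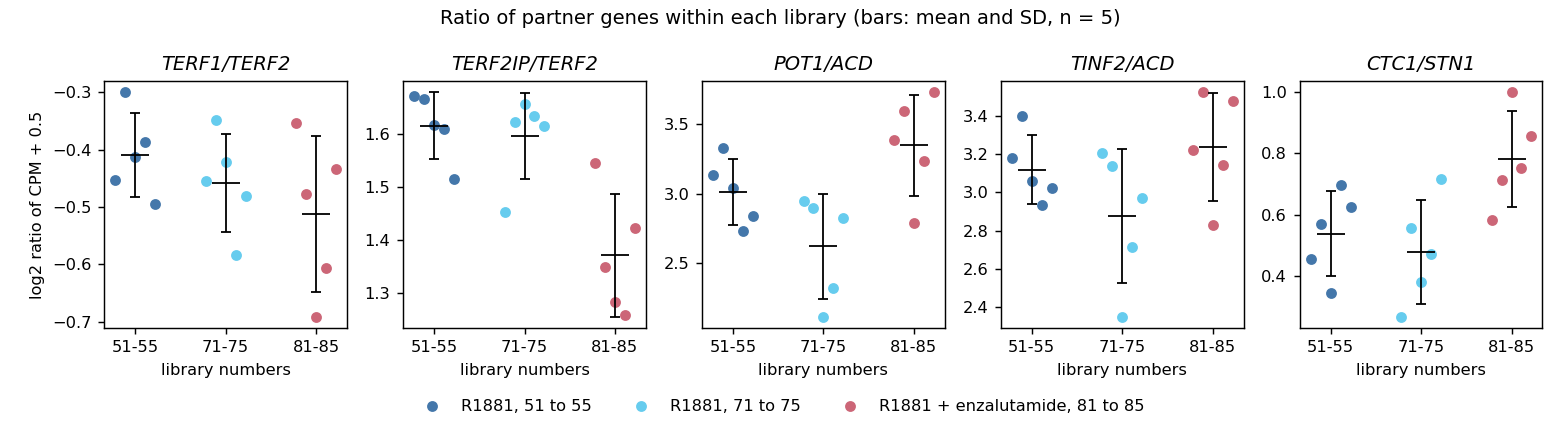
Log2 ratio of partner genes within each library, computed on CPM + 0.5 (vertical axes), by series of library numbers, with the mean and SD of each series of 5. The ratio of TERF2IP to TERF2 is lower with enzalutamide (1.26 to 1.54) than with R1881 (1.45 to 1.67), and that of CTC1 to STN1 is higher (0.58 to 1.00 against 0.27 to 0.72).

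**Figure D4:**
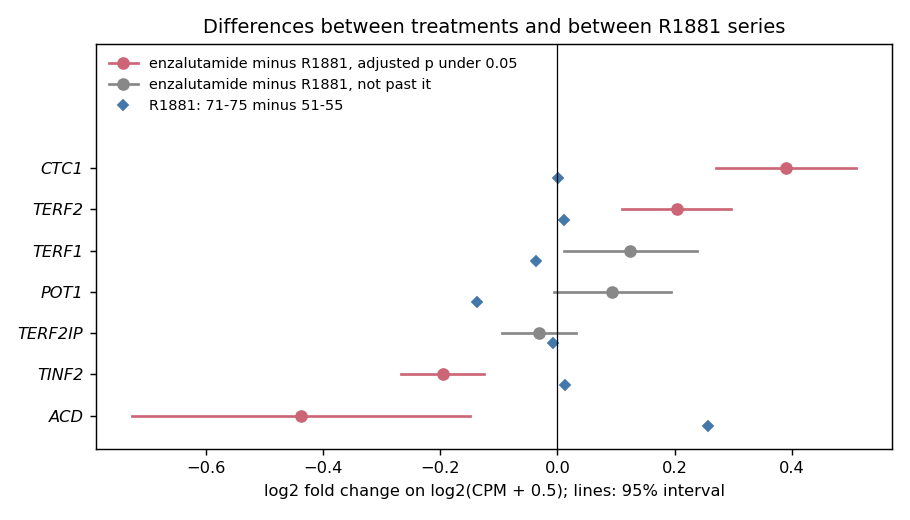
Log2 fold change of the 7 genes on log2(CPM + 0.5), enzalutamide minus R1881, with 95% intervals as lines (red where the limma adjusted p was under 0.05, grey otherwise), and the difference between the R1881 series as blue diamonds. The intervals, which are not adjusted for the number of genes, lie away from 0 for CTC1, TERF2, TINF2 and ACD and narrowly for TERF1 (0.01 to 0.24), and the series difference is widest for ACD (0.26) and POT1 (-0.14).

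TERT and RTEL1 could be approached only through the genes around them. CLPTM1L, a membrane protein gene beside TERT, fell from 119 ± 9.30 to 82.6 ± 6.70 CPM (SD, n = 10 and 5, log2 fold change -0.52, limma adjusted p = 5.1e-08), with no overlap between the groups. This says nothing of the level of TERT itself. The readthrough transcript RTEL1-TNFRSF6B, annotated over RTEL1 on the same strand of chromosome 20 at 63659300-63698684, had 4 to 17 reads per library. Its mean was 0.459 ± 0.154 CPM with R1881 and 0.377 ± 0.175 CPM with enzalutamide (SD, n = 10 and 5, exact permutation p = 0.32). It did not reach the minimum mean for testing, and reads in the shared exons of overlapping genes may not be assigned to either.

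Levels were compared between the 7 genes only per length of transcript, as the median CPM per kb of the canonical transcript. With R1881 the order was TERF2IP (61.1), TINF2 (39.9), POT1 (15.8), TERF2 (14.0), TERF1 (9.40), ACD (5.31) and CTC1 (3.76). Across libraries TERF2IP (58.7 to 62.9) and TINF2 (38.3 to 41.7) were apart from all others, whereas POT1 (14.5 to 17.8) overlapped with TERF2 (13.5 to 15.7). TERF1 lay between and overlapped with ACD at its lower end, since ACD reached 8.76 in a single library. With enzalutamide ACD (4.03) and CTC1 (4.91) exchanged their places at the end of the order, and their libraries then overlapped (3.21 to 5.66 and 4.66 to 5.15). Per kb of the merged exons of a gene, TERF2IP and TINF2 were again the highest and the order of the other 5 differed, with TERF1 the lowest at 1.99 in R1881, so only the first 2 places were independent of the length used.

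The genes whose log2 levels followed a telomere gene most closely over the 15 libraries were, for ACD, NARFL, PUF60 and TST (Pearson's r of 0.98 for each), and for CTC1, ASS1 (0.95), DICER1-AS1 (0.94) and ATP2C2 (0.93). These points share the treatment and the library composition described above and are given as a description.

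The other genes of telomere biology were read from lists of their roles. Among 47 such genes, 10 rose, 21 fell and 16 did not pass, and the median log2 fold change was -0.10, beside -0.01 for all genes tested. Over all genes tested, 62.5% passed, 29.8% as higher and 32.7% as lower, and the counts of each list below stand beside these shares. The proliferation markers fell in 12 of 12 cases (median -0.89), among them MKI67 (108 to 45.0 CPM), PCNA (160 to 91.3 CPM, the sliding clamp) and MCM2 (82.7 to 46.2 CPM, a helicase subunit). Their summed level was 1354–1633 CPM with R1881 and 729–806 CPM with enzalutamide. Their part in the results on telomere genes was not tested.

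Of the 15 genes of telomerase assembly with a row, 2 rose, 6 fell and 7 did not pass (median -0.10), beside 62.5% of all genes passing. The lowest were WRAP53, which carries telomerase to Cajal bodies (17.8 to 12.3 CPM, log2 fold change -0.52, no overlap between the groups), the assembly factor NAF1 (-0.40) and the ATPase RUVBL2 (-0.32). The 2 that rose were NOP10, a protein of the mature telomerase particle (121 to 151 CPM, 0.32, no overlap), and ZCCHC8 (0.16), a factor of nuclear RNA turnover.

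In the list of CST and polymerase alpha-primase, CTC1 was the only 1 of 6 genes that rose, where 29.8% of all genes tested rose and 32.7% fell. For 37.2% of all genes tested the groups did not overlap. All 4 subunits of the polymerase and primase fell: PRIM2 from 27.9 to 14.6 CPM (log2 fold change -0.91), POLA1 from 38.7 to 21.8 (-0.81), POLA2 from 29.5 to 17.1 (-0.77) and PRIM1 from 15.9 to 10.5 CPM (-0.58), each without overlap between the groups. The limma adjusted p of these 4 genes was between 5.3e-12 and 1.3e-06. These subunits also start DNA synthesis at replication forks everywhere in the genome. The median of the 6 genes of the list, CTC1 and STN1 included, was -0.67. That of the proliferation markers was -0.89, and their part in these falls was not tested.

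Among 15 helicases, nucleases and shelterin partners, 4 rose, 6 fell and 5 did not pass (median -0.04), near the 62.5% of all genes that passed. The flap nuclease FEN1 fell from 76.3 to 29.6 CPM (log2 fold change -1.35), the helicase BLM from 10.4 to 4.62 CPM (-1.07), and DCLRE1B (the Apollo nuclease, which is held at telomeres by TERF2) from 20.0 to 11.6 CPM (-0.77, no overlap), while TERF2 itself rose. TNKS2 (94.9 to 129.7 CPM, 0.45) and TNKS (72.0 to 88.9 CPM, 0.30), the tankyrases that modify TERF1 and release it from telomeres, both rose. ERCC1, a subunit of a structure-specific nuclease, gave 0.25 (limma adjusted p = 0.00045).

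Of 12 genes of telomere chromatin and of alternative lengthening of telomeres (ALT), 4 rose, 5 fell and 3 did not pass (median 0.02), where 62.5% of all genes passed. ZBTB10, a protein that binds telomeric repeat variants, fell from 225 to 64.7 CPM (log2 fold change -1.79), and FANCM (-0.43) and NR2F2 (-0.32) also fell. SLX4IP (23.8 to 36.9 CPM, 0.62), ZNF827 (32.0 to 47.7 CPM, 0.57) and HMBOX1 (9.30 to 12.1 CPM, 0.36) rose.

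Of 11 transcription factors known to act on the TERT promoter, 3 rose, 6 fell and 2 did not pass (median -0.24), where 29.8% of all genes rose and 32.7% fell. E2F1 fell from 35.5 to 13.1 CPM (log2 fold change -1.40), KLF4 from 6.27 to 2.21 CPM (-1.32) and the MAX partner MXD1 from 22.1 to 17.5 CPM (-0.33). MXI1, another MAX partner that opposes MYC, rose from 47.1 to 84.5 CPM (0.84), MYC from 107 to 136 CPM (0.36), and TFAP2A gave 0.22 (limma adjusted p = 0.047). No level of TERT stands beside these values.

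**Figure D5:**
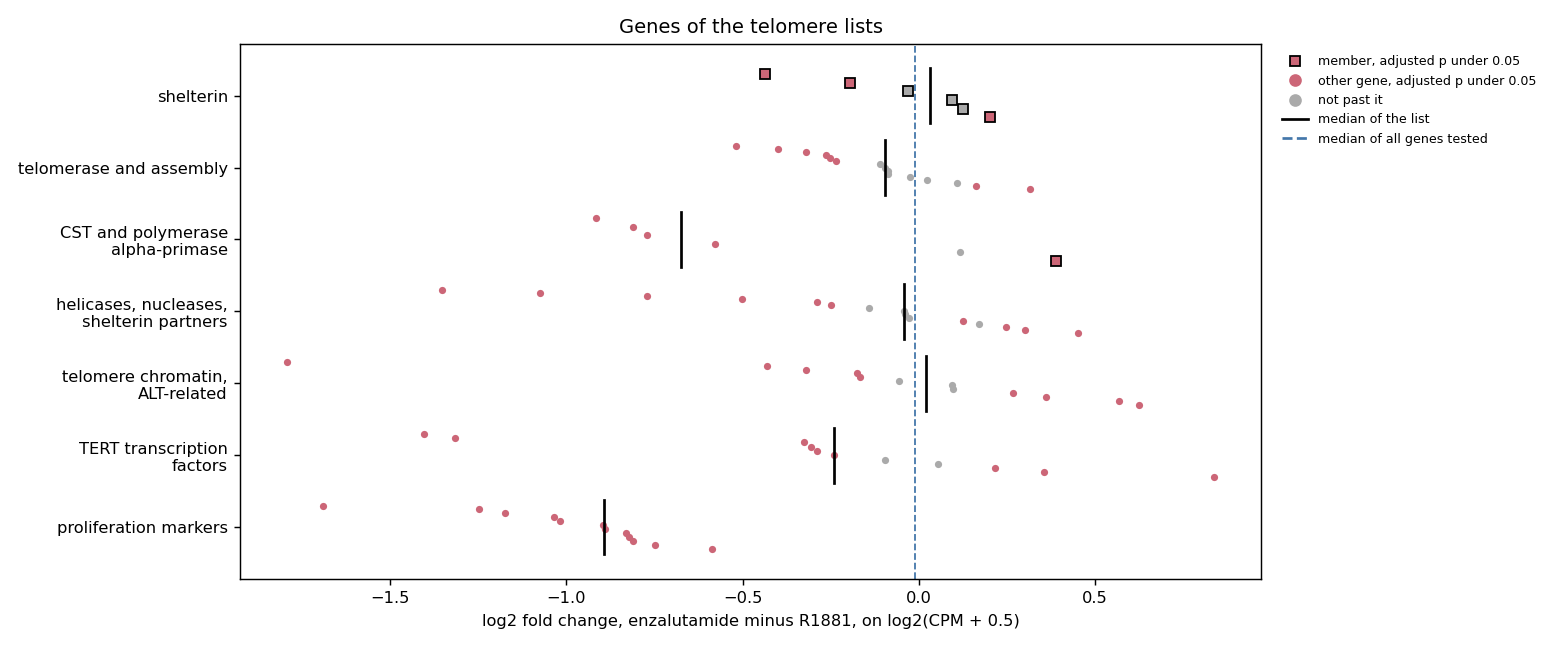
Log2 fold change (horizontal axis, enzalutamide minus R1881) of each gene in the telomere lists and the proliferation markers. Squares with a black edge are the 7 telomere genes, colored points passed the limma test, black bars are list medians and the dashed line is the median of all genes tested (-0.01). The 4 polymerase alpha-primase genes lie between -0.91 and -0.58, and CTC1 lies at 0.39 in the same list.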

How the data were processed

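Polyadenylated RNA of LNCaP cells (TruSeq Stranded mRNA, single-end reads of 50 bases) was measured in 15 libraries. Groups follow the sample labels, 10 R1881 and 5 R1881 + enzalutamide, whereas the study's methods state 10 for the combination and 5 for R1881. The labels call the samples replicates without naming separate cultures, so p-values measure the spread between these samples. The submitters' processing notes name bcl2fastq 2.17, STAR, featureCounts (Subread) and GRCh38. Not given in the sources used here are other versions, the annotation, the strand setting, how 17272 genes were kept and the scaling. The authors deposited a normalized signal per gene, called CPM in their methods, whose columns summed to 985580–1078567. Divided by the value of 1 read of the library, 100% of the values were whole numbers (tolerance 0.01 reads), which returned the read counts (15830745–25416052 per library). In each of 55 pairs within a treatment, the libraries differed beyond sampling noise (lowest ratio of chi-square to degrees of freedom 1.62).

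Differences were tested with limma 3.58.1 in R 4.3.3 (log2(CPM + 0.5) with a mean-variance trend, genes with a mean CPM of 0.5 or more, treatment as the only term, all 15 libraries, Benjamini-Hochberg over 17046 genes, threshold 0.05). Fold changes on this scale understate those of low genes. Single values and partner ratios used two-sided exact permutation tests over 3003 regroupings of all 15 libraries. Where libraries were left out or paired, the regroupings were fewer. The planned test for CPM was kept. A ratio of RTEL1 to TERF2 was not computed, since RTEL1 was not analysed here. Alternatives were pseudocounts of 0.1 and 1, other filters, TMM and median-ratio factors, totals set to 1000000, edgeR 4.0.16 and DESeq2 1.42.0 on the recovered reads, replicate blocks, each R1881 series alone and each library left out. Removal of the trend on transcript GC content (natural spline with 5 degrees of freedom, 86.0% of genes matched) and leaving out libraries 73, 74 and 83 were chosen after seeing the data. Positions are from GENCODE v44 on GRCh38, and older symbols were matched where needed.

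The genes, lists and tests were chosen with earlier results of these data known. Named were the 9 genes, in each telomere list the 3 highest and the 3 lowest genes past the threshold, neighbours and overlapping genes, androgen targets, 3 proliferation markers, and for the 2 telomere genes with the largest change the 3 genes of mean CPM of at least 5 with the highest correlation. PRIM1, STN1, GMPR2, RLTPR, HOXB13 and the other cell type markers were named outside this rule. Some genes that the rule names are left out of the text. The limma test was tested on simulated reads in which few genes were changed, all upward. In the data 62.5% of genes passed, in both directions, so the simulation does not cover this setting.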

Additional observations from a re-analysis of the deposited data

Results flagged for a closer look

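The total of R1881 + enzalutamide replicate 5 (library 84), 25416052 reads, stood apart from the other 4 libraries of that treatment, which held 21188661 to 22329140 reads. Among 30 groups of values examined, about 1.5 would be expected to stand apart in this way by chance. In this deepest library the 7 telomere genes lay within the range of the other libraries of the treatment, except that TERF2 had its highest value there (52.2 CPM).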

How the results depend on the processing

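CTC1, TERF2, TINF2 and ACD kept their direction and passed under all 30 alternatives, with log2 fold changes of 0.31 to 0.48, 0.18 to 0.30, -0.21 to -0.10 and -0.57 to -0.31 and adjusted p-values of up to 0.00026, 0.023, 0.010 and 0.040. TERF2IP passed under none of the 30 (-0.04 to 0.06, adjusted p of at least 0.052, by limma, edgeR or DESeq2), and its sign changed with library totals set to 1000000 (0.06) and by edgeR (0.01), which moved the median of all genes by 0.085 and 0.040. TERF1 passed with a mean CPM of at least 2 (0.12), TMM factors (0.14), median-ratio factors (0.13), totals set to 1000000 (0.22), edgeR (0.17), DESeq2 (0.14), the replicate block on the last digit (0.12), libraries 73, 74 and 83 left out (0.14) and the GC trend removed (0.095). POT1 passed with TMM factors (0.11), totals set to 1000000 (0.19), edgeR (0.14), the replicate block on the title number (0.14), libraries 71 to 75 alone (0.16) and the GC trend removed (0.069). The cause of these shifts was not tested. Between 9446 (mean CPM of at least 2) and 11679 genes and 4 to 6 of the 7 telomere genes were called.

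Leaving out each library in turn gave 10071 to 10877 genes called, 4 to 6 telomere genes called, and log2 fold changes of 0.37 to 0.41 for CTC1, 0.18 to 0.24 for TERF2, -0.21 to -0.18 for TINF2, -0.55 to -0.36 for ACD, 0.10 to 0.17 for TERF1, 0.076 to 0.12 for POT1 and -0.04 to -0.01 for TERF2IP. TERF1 then passed without R1881 replicate 3, 8 or 10 or enzalutamide replicate 2, and POT1 without R1881 replicate 10 or enzalutamide replicate 2. The ratios gave -0.12 to -0.034 (TERF1 to TERF2), -0.28 to -0.21 (TERF2IP to TERF2), 0.43 to 0.67 (POT1 to ACD), 0.17 to 0.34 (TINF2 to ACD) and 0.22 to 0.32 (CTC1 to STN1). Between the R1881 series 56 to 969 genes were called, 1004 by DESeq2, 213 with the replicate block on the last digit and 842 with the GC trend removed, and none of the 7 telomere genes under any of these.

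In these settings the exact permutation p of a ratio was not adjusted over the 5 ratios. The ratio of POT1 to ACD did not pass against libraries 51 to 55 alone (0.33), nor that of CTC1 to STN1 without libraries 73, 74 and 83 (0.20). That of TINF2 to ACD had an unadjusted p under 0.05 with the GC trend removed (0.20) and without these 3 libraries (0.23). Replicate numbers did not pair the libraries: the correlations of deviations were -0.07 to 0.07 for the title number and -0.42 to 0.67 for the last digit of the library number. Blocked on the title number, the ratios gave -0.19 (TERF2IP to TERF2), 0.62 (POT1 to ACD) and 0.23 (CTC1 to STN1). The exact permutation p was 0.125, 0.125 and 0.0625, and 5 pairs cannot give an exact p below 0.0625. The pair of libraries 71 and 81 went the other way for TERF2IP to TERF2 (1.45 with R1881, 1.54 with enzalutamide). For POT1 to ACD the pair of libraries 75 and 83 went the other way (2.83 and 2.79). Depth limits ACD (108 to 294 reads per library) and RTEL1-TNFRSF6B (4 to 17 reads).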
